A study of Rattus norvegicus with 2 samples.

Results

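The Nr4a and Egr genes encode 2 small families of transcription factors made within minutes of a stimulus, and Nab1 and Nab2 encode corepressors that bind Egr proteins. Of 16846 genes measured, these are 9: Nr4a1, Nr4a2, Nr4a3, Egr1, Egr2, Egr3, Egr4, Nab1 and Nab2, taken by symbol. They were grouped by family and chosen from earlier results of the same 2 libraries, so every ratio below is a description and carries no test. Poly(A) RNA was sequenced from cultures prepared as ventricular cardiomyocytes of rats at postnatal day 0, with a stated purity above 90%. The control group is 1 library, also at 7 days of treatment, called empty adeno-associated virus (AAV) in one label and mock transduction in another. The anti-miR group is 1 library of cultures transduced for 7 days with AAV2/9 that expresses hairpins against miR-99/100 and let-7a/c. How many animals each culture pooled is not known. With 1 library per group, the treatment and anything else that differed between the cultures cannot be told apart.

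NR4A proteins are orphan nuclear receptors whose pocket holds no known hormone, so their activity follows mainly how much protein is made. They bind DNA alone or paired with one another or with retinoid X receptors. EGR proteins are zinc finger factors that bind GC-rich sites, and they turn on Nab2, whose product then represses them. Egr genes are switched on largely through the ERK kinases and serum response factor (SRF) at CArG boxes, and Nr4a genes through CREB at cyclic AMP response elements (CREs) and MEF2 factors. In heart cells both families respond to growth factors, stretch and adrenergic signals.

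The small RNAs named as targets of the hairpins fall into 2 seed groups, shown with miR-99b of the miR-99/100 family so that the treatment can be read at base level. Mature miR-99a is not analysed here, and small RNA levels were not measured in these libraries. Capitals mark the seed, bases 2 to 8 of the mature strand, and sequences are those of RefSeq (GRCr8). The pair let-7a-5p and let-7c-5p share the seed GAGGUAG, and miR-100-5p and miR-99b-5p share ACCCGUA.
let-7a-5p: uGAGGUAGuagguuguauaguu
let-7c-5p: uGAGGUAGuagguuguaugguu
miR-100-5p: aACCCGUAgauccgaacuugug
miR-99b-5p: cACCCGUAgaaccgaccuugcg

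The libraries held 16031780 (control) and 14815846 (anti-miR) reads assigned to genes, and levels are given as RPM (reads per 1000000 reads on all genes), control first. Cardiomyocyte markers were low for cultures so labelled, at 249.6 and 286.2 RPM summed over 11 genes, of which Tnnt2 gave 147.4 and 161.2. Of 7 that averaged at least 1 RPM, 2 were higher by 1.5-fold or more with the hairpins and 1 lower. Of all genes at that level, 10.8% were higher and 8.56% lower by as much. Among these 7, 5 were higher and 2 lower, the latter Myl2 at 30 and 5 reads and Pln at 135 and 100. The genes Myh6, Ryr2, Myl3 and Tnni3, all below a mean of 1 RPM, had 0 reads in the control and 23, 20, 19 and 5 in the anti-miR library. The 11 fibroblast markers summed to 102462 and 103903 RPM, and 0 of them were 1.5-fold apart. The 13 macrophage markers summed to 7821 and 8388 RPM, with 0 of the 12 that averaged at least 1 RPM 1.5-fold apart and Cd163 at 0 reads in both. Of these 12, 7 were lower and 5 higher, among them C1qa at 528.1 and 355.3 RPM and Lyz2 at 2937 and 3937. Endothelial markers summed to 43.0 and 64.3 RPM over 8 genes, and Emcn was at 0 reads in both. Of 6 endothelial markers that averaged at least 1 RPM, 3 were at least 1.5-fold higher and 2 lower. Smooth muscle markers summed to 1128 and 1127 RPM. The part of any of these cells in the ratios of the members was not tested, and in such mixed cultures fewer cells of a type and less RNA per cell cannot be told apart.

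The members parted into a lower and a level-to-higher set. Nr4a1, Nr4a2, Egr2 and Egr3 were lower in the anti-miR library by 1.69-fold to 4.55-fold, Egr1 was level, Nab1, Nab2 and Nr4a3 were higher by 1.15-fold to 1.60-fold, and Egr4 had 0 reads in both libraries. Of the 8 members averaging at least 1 RPM, 4 were at least 1.5-fold lower and 1 was at least 1.5-fold higher. Over all 10365 genes above that floor 8.56% were at least 1.5-fold lower and 10.8% at least 1.5-fold higher; the members were chosen on this contrast, so nothing is read from the difference. Counting intervals lay wholly below 1 for 4 members and above 1 for 3, against 28.1% and 33.6% of all genes. The members' median log2 ratio was −0.35, the midpoint of Egr3 and Egr1 because the number of members is even, against 0.03 for all genes. Log2 ratios divide anti-miR by control RPM after 0.1 RPM is added to each, and linear ratios are of reads per library depth with exact Clopper-Pearson 95% intervals that cover counting error only.

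**Figure D1:**
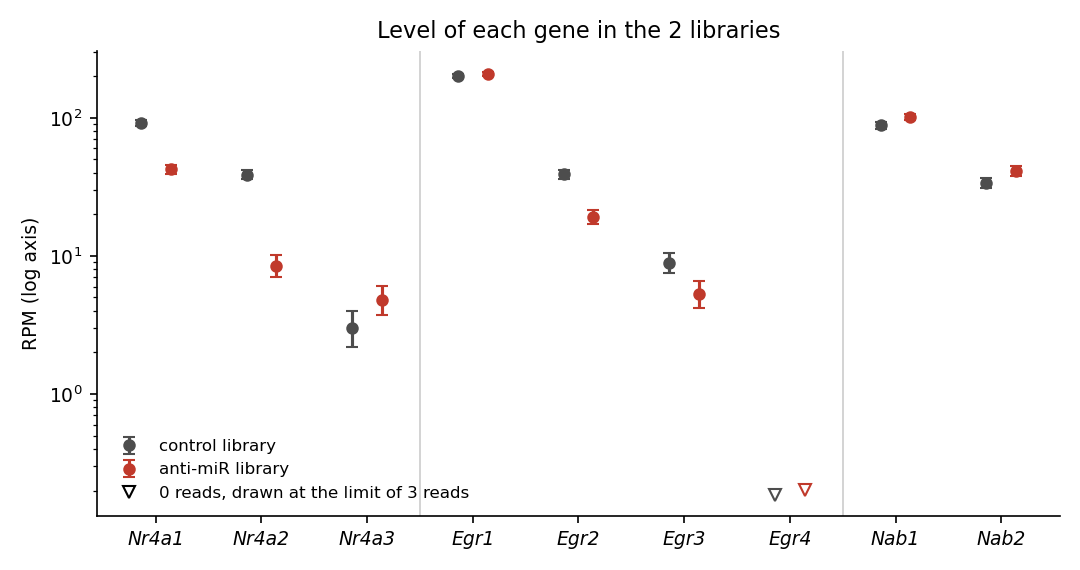
Level of each of the 9 genes in RPM (log axis) in the control library (grey) and the anti-miR library (red), with exact Poisson 95% intervals for counting error; open triangles mark 0 reads, drawn at the one-sided limit of 3 reads. The intervals of the libraries are apart for Nr4a1, Nr4a2, Egr2 and Egr3, with the control above, and for Nab1 and Nab2, with the anti-miR library above, and they overlap for Egr1 and Nr4a3.

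Nr4a1, also called Nur77, is the receptor of the family most studied in muscle and macrophages. Its gene (chromosome 7, 140012800 to 140020589, build rn4) had 1476 reads in control and 626 in anti-miR cultures, or 92.1 and 42.3 RPM. The control level was 2.18-fold above the anti-miR level (counting interval 1.98 to 2.40). The log2 ratio of −1.12 lay below the range of −0.47 to 0.51 that holds the central 95% of the 500 genes nearest in level, called the like-level range.

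Nr4a2, or Nurr1, is best known for its role in dopamine neurons and is also induced in activated macrophages. It lay on chromosome 3, 38866210 to 38871678, and had 621 reads in control and 126 in anti-miR cultures, or 38.7 and 8.50 RPM. The control was 4.55-fold higher (3.76 to 5.56), with a log2 ratio of −2.17 against a like-level range of −0.66 to 0.98. Among the 7935 genes averaging at least 10 RPM, Nr4a2 ranked 1 from the lowest ratio.

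Nr4a3, or NOR-1, was the scarce member and lay on the other side. Its gene (chromosome 5, 64713468 to 64753306) had 48 reads in control and 71 in anti-miR cultures, or 2.99 and 4.79 RPM. The ratio was 1.60 (1.09 to 2.36), and the log2 ratio of 0.66 lay well inside the like-level range of −1.97 to 2.24. Genes with so few reads often differed by this much between the 2 libraries.

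The 3 receptors together had 133.8 RPM in control and 55.5 in anti-miR cultures, a ratio of 0.415 (0.383 to 0.450). Nr4a2 gave 29.0% of the family's reads in the control (exact binomial interval 27.0 to 30.9) and 15.3% in the anti-miR library (12.9 to 18.0). The share of Nr4a1 was 68.8% (66.8 to 70.8) in control and 76.1% (73.0 to 78.9) in anti-miR cultures. Nr4a3 made up 2.24% (1.65 to 2.96) and 8.63% (6.80 to 10.8). The makeup of the family thus differed as well as its sum, with Nr4a2 the member whose share was smaller in the anti-miR library.

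The promoters of Nr4a1 and Nr4a2, the receptors with the largest differences, are printed 5′ to 3′ in the direction of the gene from RefSeq (GRCr8), from 250 bases before the gene start to 50 bases after it. Capitals mark the CRE core TGACG on either strand, which reads as CGTCA when it lies on the other strand.
Nr4a1 promoter, chr7:134259888-134260187 (plus strand): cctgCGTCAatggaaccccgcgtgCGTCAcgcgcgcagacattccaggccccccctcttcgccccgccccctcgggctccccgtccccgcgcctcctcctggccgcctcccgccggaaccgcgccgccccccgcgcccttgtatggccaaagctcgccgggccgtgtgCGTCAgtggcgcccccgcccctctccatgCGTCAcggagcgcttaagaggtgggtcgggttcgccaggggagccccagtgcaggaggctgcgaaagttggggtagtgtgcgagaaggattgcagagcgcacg
Nr4a2 promoter, chr3:62104838-62105137 (minus strand): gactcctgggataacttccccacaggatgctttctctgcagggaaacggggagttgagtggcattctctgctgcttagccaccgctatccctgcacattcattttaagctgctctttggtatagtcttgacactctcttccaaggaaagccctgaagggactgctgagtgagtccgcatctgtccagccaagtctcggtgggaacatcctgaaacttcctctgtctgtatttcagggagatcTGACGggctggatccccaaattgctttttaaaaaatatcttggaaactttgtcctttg

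The Nr4a1 window held 4 CRE cores, all on the strand opposite to the gene, starting at −246, −226, −82 and −53 from the gene start. It also held 1 EGR site, GCGGGGGCG, at −73 to −65, and 1 ETS core, CCGGAA, at −138 to −133. The Nr4a2 window held 1 CRE core, at −8 to −4, and none of the other motifs searched. Their G and C content was 72.3% and 48.7%, against a median of 51.7% over all promoters of the table. The Nr4a3 promoter is not analysed here.

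Egr1, the founding EGR factor and a widely used marker of recent stimulation, was the most abundant member and stood at nearly the same level in both libraries. Its gene (chromosome 18, 27343919 to 27346117) had 3231 reads in control and 3074 in anti-miR cultures, or 201.5 and 207.5 RPM. The ratio was 1.03 (0.980 to 1.08), an interval that includes 1, and the log2 ratio was 0.04. Counting error alone covers this difference between the 2 libraries. The log2 ratio lay inside the like-level range of −0.32 to 0.36.

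Egr2, or Krox20, a regulator of myelination that is also induced in macrophages and lymphocytes, was lower. It lay on chromosome 20, 21883885 to 21888177, with 623 reads in control and 283 in anti-miR cultures, or 38.9 and 19.1 RPM. The control was 2.03-fold higher (1.76 to 2.35), and the log2 ratio of −1.02 lay below its like-level range of −0.65 to 0.71.

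Egr3, which acts in muscle spindles and in T cells, was lower by a smaller and less precise amount. Its gene (chromosome 15, 50477453 to 50479909) had 143 and 78 reads, or 8.92 RPM in control and 5.26 in anti-miR cultures. The control was 1.69-fold higher (1.28 to 2.26), while the log2 ratio of −0.75 lay inside the like-level range of −1.44 to 1.46. Egr4 (chromosome 4, 119765289 to 119767612), a factor mainly of neurons and germ cells, had 0 reads in each library. The one-sided limit that a count of 0 allows is 3 reads, or 0.187 RPM in control and 0.202 in anti-miR cultures.

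**Figure D2:**
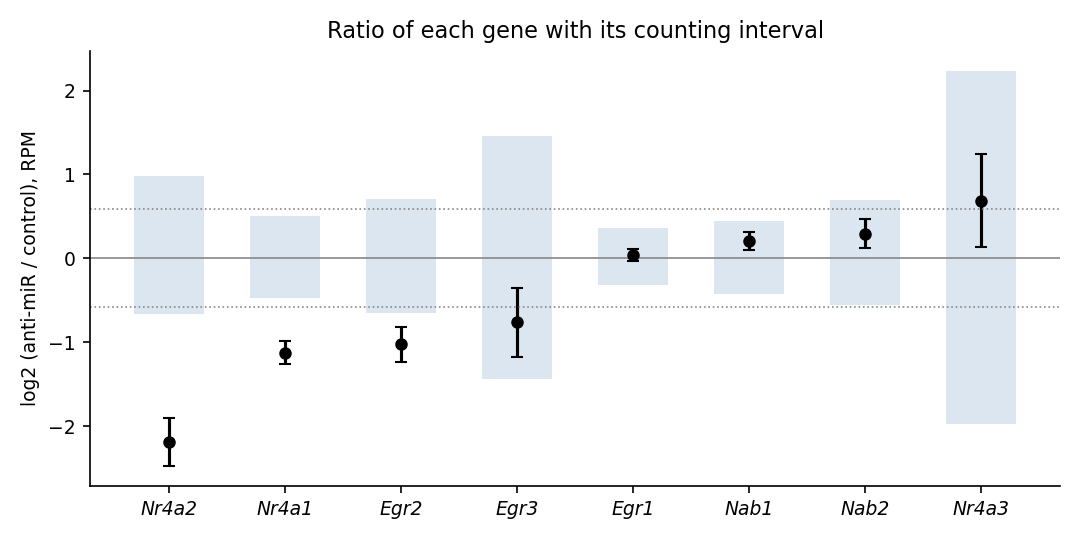
Log2 ratio of anti-miR to control RPM for the 8 genes with reads (points), ordered from the lowest, with Clopper-Pearson 95% counting intervals; blue boxes hold the central 95% of the 500 genes nearest in level and dotted lines mark a ratio of 1.5. Nr4a2, Nr4a1 and Egr2 lie below their boxes, and Egr3, Egr1, Nab1, Nab2 and Nr4a3 lie inside theirs.

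As a sum the Egr family had 249.3 RPM in control and 231.8 in anti-miR cultures, a ratio of 0.930 (0.888 to 0.974), since Egr1 gave most of its reads. Egr1 made up 80.8% (79.6 to 82.0) of the family's reads in control and 89.5% (88.4 to 90.5) in anti-miR cultures. Egr2 made up 15.6% (14.5 to 16.7) and 8.24% (7.34 to 9.21), and Egr3 3.58% (3.02 to 4.20) and 2.27% (1.799 to 2.83). Egr2 and Egr3 thus held a smaller part of the family in the anti-miR library, and Egr1 a larger one.

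The promoters of Egr1 and Egr2 are shown because both windows hold a CArG box. Likeness of the windows beyond the motifs searched was not measured, and any part of the promoters in the ratios was not tested. Capitals mark CArG boxes, the SRF site, and CRE cores on either strand.
Egr1 promoter, chr18:26736828-26737127 (plus strand): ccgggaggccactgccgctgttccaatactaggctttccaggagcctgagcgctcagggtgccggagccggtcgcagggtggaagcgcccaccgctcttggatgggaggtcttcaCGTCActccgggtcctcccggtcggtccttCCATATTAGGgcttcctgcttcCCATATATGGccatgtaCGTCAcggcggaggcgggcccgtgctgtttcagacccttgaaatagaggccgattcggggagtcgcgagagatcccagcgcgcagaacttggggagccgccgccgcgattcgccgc
Egr2 promoter, chr20:21054392-21054691 (minus strand): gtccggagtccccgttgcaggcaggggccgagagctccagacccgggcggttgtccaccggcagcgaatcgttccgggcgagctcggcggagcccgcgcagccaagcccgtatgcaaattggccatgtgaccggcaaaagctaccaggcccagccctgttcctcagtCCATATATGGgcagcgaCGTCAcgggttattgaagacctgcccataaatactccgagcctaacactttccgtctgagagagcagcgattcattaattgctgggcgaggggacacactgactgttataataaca

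Both windows held a CArG box at −83 to −74, with the same 10 bases in each, and a CRE core at −66 to −62 on the opposite strand. Egr1 held a second CArG box at −105 to −96 and a second CRE core at −135 to −131. Egr2 held an ETS core at −179 to −174. CArG boxes were counted only in full form, CC and GG around bases that are all A or T, and near matches were not searched. They occurred in 1.64% of the 33469 promoter windows of the table, which cover 27457 genes. Egr1 and Egr2 were the only members of the 7 with a window that held such a full match.

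The corepressor genes were slightly higher. Nab1 (chromosome 9, 46084090 to 46124258) had 1412 and 1501 reads, or 88.1 RPM in control and 101.3 in anti-miR cultures, a ratio of 1.15 (1.07 to 1.24). Nab2 (chromosome 7, 67642321 to 67648713), itself an Egr target gene, had 541 and 613 reads, or 33.7 and 41.4 RPM, a ratio of 1.23 (1.09 to 1.38). Nab1 had a log2 ratio of 0.20 within a like-level range of −0.42 to 0.45, and Nab2 one of 0.29 within −0.56 to 0.70. Their sum had a ratio of 1.17 (1.10 to 1.25), and the share of Nab2 in it was 27.7% in control and 29.0% in anti-miR cultures, with intervals that overlap (25.7 to 29.7 and 27.1 to 31.0). Nab2 lies 38 bases from Stat6, which is on the opposite strand and had 1901 and 2283 reads. Counting used the strand, per the file headers, and whether reads running past either end were counted in the other gene was not tested. No row of the table overlaps any of the 9 genes.

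Set against Egr1 within each library, the members give a measure that library depth and scaling do not enter. For every 100 Egr1 reads there were 45.7 Nr4a1 reads in control and 20.4 in anti-miR cultures. The same measure was 19.2 and 4.10 for Nr4a2, 19.3 and 9.21 for Egr2, and 4.43 and 2.54 for Egr3. These 4 genes were lower relative to Egr1 by ratios of 0.446 (exact conditional interval 0.400 to 0.496), 0.213 (0.174 to 0.260), 0.477 (0.410 to 0.555) and 0.573 (0.427 to 0.764). Nab1 and Nab2 stood at 1.12 (1.02 to 1.22) and 1.19 (1.05 to 1.35), and Nr4a3 at 1.55 (1.06 to 2.30). Egr1 was taken as the reference after its values were seen.

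Levels per kilobase of the listed transcript allow for the length of each gene's model. On this scale Egr1 led in both libraries, at 132.2 RPM per kilobase in control and 136.1 in anti-miR cultures. In the control it was followed by Nr4a1 at 37.1, Nab1 at 19.9, Nr4a2 at 15.1, Egr2 at 13.1, Nab2 at 10.05, Egr3 at 7.68 and Nr4a3 at 0.683. Of these neighbours, Nr4a2 (13.98 to 16.4) and Egr2 (12.1 to 14.2) had Poisson intervals that overlap. In the anti-miR library the order after Egr1 was Nab1 at 22.9, Nr4a1 at 17.0, Nab2 at 12.3, Egr2 at 6.46, Egr3 at 4.53, Nr4a2 at 3.32 and Nr4a3 at 1.09. There the intervals of Egr3 (3.58 to 5.66) and Nr4a2 (2.77 to 3.96) overlap. Nr4a1 stood above Nab1 in control and below it in anti-miR cultures, and Nr4a2 moved from the fourth to the seventh place. These levels, and so the order of genes, rest on the transcript models, such as 1524 bases for Egr1 and 1161 for Egr3. Reads outside a model were not counted, and whether the models are equally complete was not checked.

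Among genes of similar abundance, 3 of the 4 lower members, Nr4a1, Nr4a2 and Egr2, were at the edge of the distribution, and Egr3 lay inside its like-level range. Of the 7935 genes averaging 10 RPM or more, 37 were at least 2-fold lower, or 0.466%. Nr4a1, Nr4a2 and Egr2 were 3 of these 37, at ranks 22, 1 and 34 from the lowest ratio, and 3 of the 6 members above that level. Members were chosen on this contrast, so nothing is read from these ranks or from that share. Egr1, Nab1 and Nab2 ranked 4198, 5778 and 6469. The genes closest to the 2 members with the highest mean RPM over the libraries were Trim28, Ogt and Tnfrsf1a for Egr1 and Smc6, Nfatc3 and Akna for Nab1. Likeness was the Euclidean distance in log2 RPM over the 2 libraries, 0.015 to 0.026 for the former and 0.0041 to 0.023 for the latter.

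**Figure D3:**
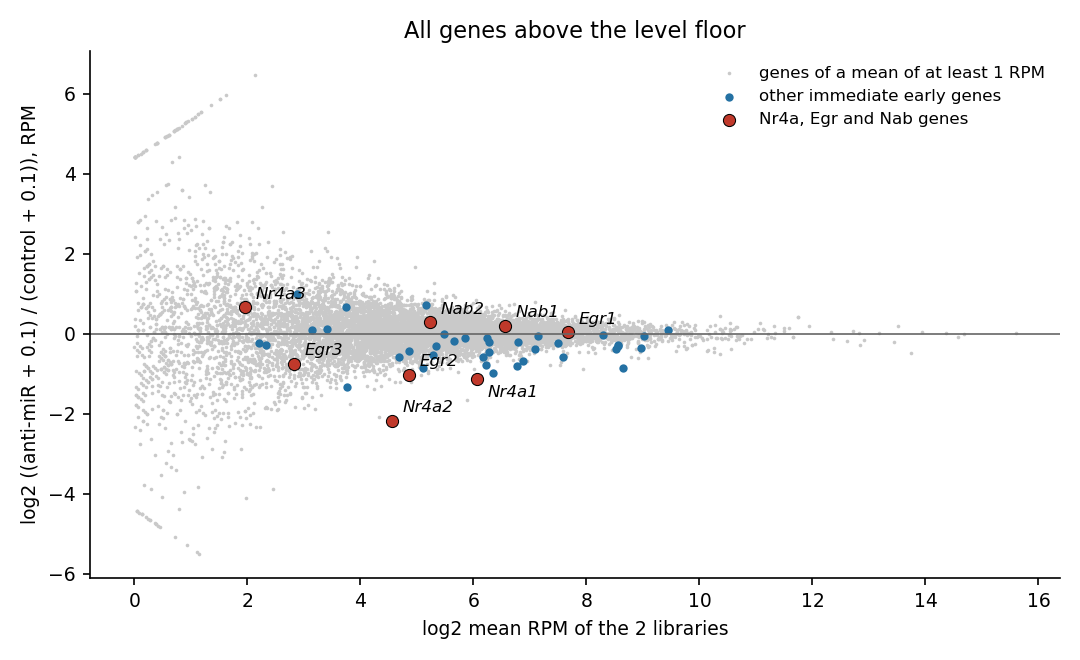
Log2 ratio of anti-miR to control RPM (with 0.1 added to each) against log2 mean RPM for the 10365 genes above the floor (grey), with 38 other immediate early genes in blue and the 8 members above the floor in red. Nr4a2, Nr4a1 and Egr2 lie at the lower edge of the grey cloud at their level, and Egr1 lies at its centre.

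The other immediate early genes, a list of 42, with 39 in the table, that was drawn up with results of a shorter one known and is no independent support, were mostly lower as well. Of 38 above the floor, 30 were lower, against 46.7% of all genes. At least 1.5-fold lower were 8, with 3 at least 1.5-fold higher and 27 between, against 8.56% lower and 10.8% higher of all genes. The median log2 ratio was −0.29, against 0.03 for all genes. Counting intervals lay wholly below 1 for 24 and above 1 for 4, against 28.1% and 33.6% of all genes. Their summed level was 6153 RPM in control and 5083 in anti-miR cultures.

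The lowest of these was Hbegf, a membrane-bound growth factor of the EGF family, with 19.5 RPM in control and 7.76 in anti-miR cultures and a log2 ratio of −1.32. Genes of at least 50 RPM past 1.5-fold included Rgs2, which restrains G protein signalling, at 139.3 and 79.7 RPM, and the factor gene Klf4 at 145.0 and 89.8. The others were Btg2, Dusp1 and Atf3, with log2 ratios of −0.98, −0.85 and −0.78. Nr4a2 had a lower ratio than each of the 38, and Nr4a1 and Egr2 a lower one than each but Hbegf. Dusp2, a nuclear MAP kinase phosphatase, was the highest, at 4.93 and 9.85 RPM, for a log2 ratio of 0.99. The most abundant by mean RPM of the libraries, the matricellular gene Cyr61 and the kinase gene Sgk1, stood at 0.09 and −0.05. The next, the AP-1 factor gene Fos, stood at 561.6 RPM in control and 440.7 in anti-miR cultures. Its ratio was 0.785 (0.760 to 0.810), and the log2 ratio of −0.35 lay just inside its like-level range of −0.36 to 0.30.

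Upstream factors lay on both sides of level. For the 1.5-fold counts below, the shares across all genes past the floor were 8.56% lower and 10.8% higher. The median log2 ratio across those genes was 0.03. With 4 to 7 genes in each list, no direction is read from such counts. Of 5 SRF-related genes above the floor, 1 was at least 1.5-fold lower and 0 higher, with a median log2 ratio of 0.08. Srf itself had 49.1 and 58.9 RPM (0.26), the ETS partners Elk3 and Elk4, the most abundant, stood at 0.17 and −0.06, and the coactivator gene Myocd was lowest at −0.76. Of 7 CREB-related genes, 2 were lower by 1.5-fold and 0 higher, with a median of −0.21. The CREB coactivator gene Crtc2 had 1164 and 683 reads, or 72.6 and 46.1 RPM, and its log2 ratio of −0.65 lay below its like-level range of −0.52 to 0.52. Creb1, encoding CREB, had 69 and 16 reads, or 4.30 and 1.08 RPM, and its log2 ratio of −1.90 lay inside the like-level range of −2.33 to 2.84. Its close relative Atf1 had 71.6 and 73.5 RPM, Creb3l2, the most abundant, stood at 0.03 and Crebbp, an acetyltransferase that binds CREB, was highest at 0.20. MEF2 factors and class IIa histone deacetylases act on Nr4a1 in opposite ways. Their joint median of 0.13 over 4 genes thus gives no direction for either. Of the 4, 0 were 1.5-fold lower and 1 higher, with Hdac9 at 1.42 on 24 and 62 reads and Hdac5 at −0.20. Lowest at −0.32 was Mef2d, the only MEF2 factor above the floor. Listed but not found by symbol were Mef2a, Mef2c and Hdac7 here and Mkl1, Mkl2, Crtc3 and Ep300 in the lists above.

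The ERK pathway was level to slightly higher. Of 21 genes above the floor, 17 were higher, against 53.3% of all genes, and the median was 0.14. At least 1.5-fold higher was 1 of them, against 10.8% of all genes, and 0 were lower by that much, against 8.56%. The adaptor gene Shc1 had 390.8 and 403.6 RPM and the kinase gene Map2k1 had 168.5 and 199.9. Rps6ka1, a kinase downstream of ERK, was highest at 0.72 and Map2k5 lowest at −0.53. Transcript levels of kinases say nothing of their activity. The retinoid X receptor genes that can pair with NR4A proteins were Rxra, at 40.5 and 59.8 RPM, a log2 ratio of 0.56, and Rxrb at −0.11, while Rxrg had 0 reads in both libraries.

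Genes commonly cited as targets showed no shared direction. Of 24 EGR1 targets above the floor, 3 were at least 1.5-fold lower and 2 higher, with a median of 0.04. Over all genes above the floor those shares were 8.56% and 10.8%. Fn1 (fibronectin), the most abundant, stood at −0.07. Fgf2 was lowest at −2.01 on 44 and 9 reads, and Tnf highest at 1.65 on 53 and 157 reads. Of 14 NR4A targets above the floor, out of 27 listed, 3 were lower by 1.5-fold and 1 higher, with a median of −0.18. Spp1 (osteopontin) and Ccnd1 (cyclin D1) stood at 0.05 and 0.11, Cish was lowest at −1.91 on 45 and 10 reads, and E2f1 highest at 0.80. Another 9 of the 27, among them Fbp2 and Ucp3 of muscle metabolism, had 0 reads in both libraries.

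**Figure D4:**
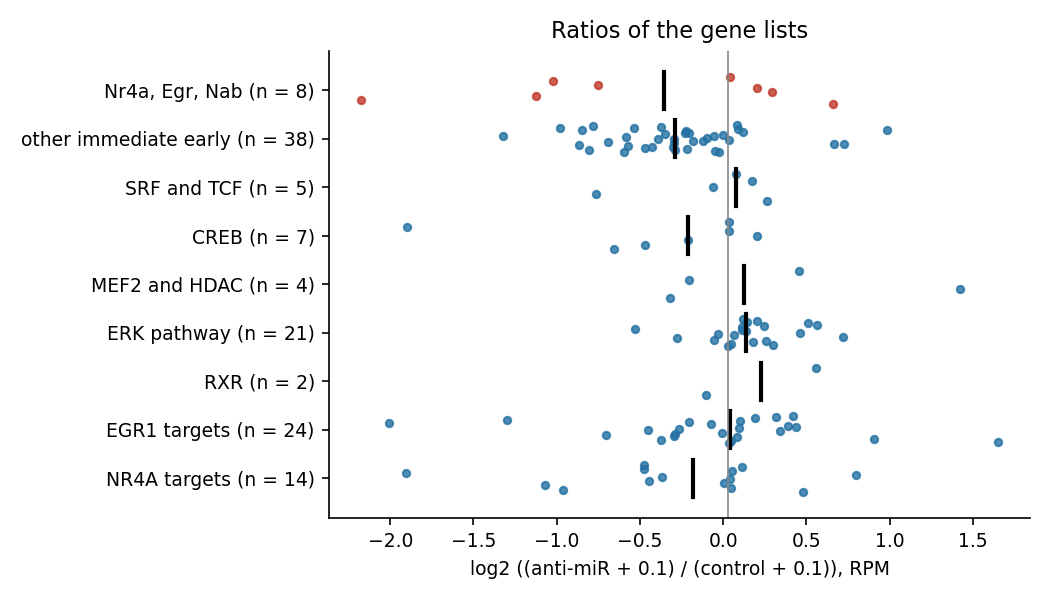
Log2 ratios of anti-miR to control RPM (with 0.1 added to each) for the members (red) and the genes of 8 related lists (blue), genes above the floor only, with the number of genes beside each name; black bars are medians and the grey line is the median of all genes, 0.03. Of the 8 members, 4 lie below 0 and 4 above, with Egr1 close to 0, and the other immediate early genes centre at −0.29.

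Across the 7 members with a promoter window (Egr3 and Nr4a3 have none here), CRE cores were the most widespread motif. TGACG, the shortest pattern searched, occurred on either strand in 6, namely Nr4a1, Nr4a2, Egr1, Egr2, Egr4 and Nab1, against 21.2% of all windows. That share is not matched for G and C content, so no excess is read from it. The content was 48.7% in Nr4a2 and 59% to 81.7% in the others of these, against a median of 51.7% over all windows. The full CRE, TGACGTCA, which contains the core, was in 0 members and 1.83% of windows. Nab1 held 2 EGR sites of the form GCGTGGGCG, found in 0.544% of windows, and 1 of the form GCGGGGGCG, found in 2.73%, which Nr4a1 also held. ETS cores were in Nr4a1 and Egr2 and in 15.0% of windows. The AP-1 site TGANTCA, the NR4A monomer site AAAGGTCA and the TATA box TATAAA were in 0 members, against 7.33%, 1.43% and 14.2% of windows, and the Nab2 window held none of the motifs. Matches describe letters in this window only, and any link between a motif and the ratios was not tested.

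**Figure D5:**
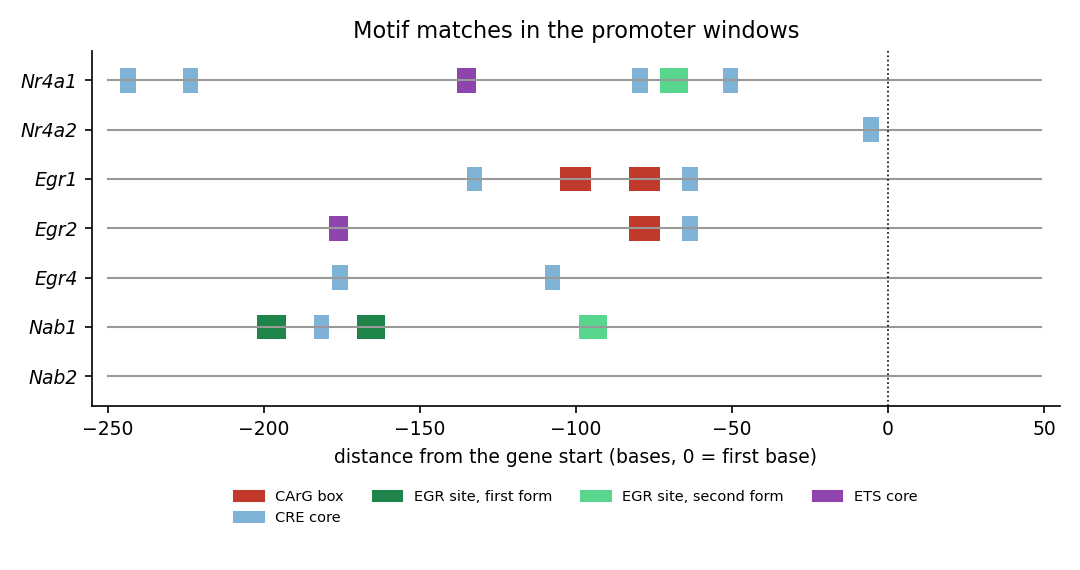
Motif matches (coloured boxes, either strand) by distance in bases from the gene start in the promoter windows of 7 members, from 250 bases before the start to 50 after it; the dotted line marks the start. Egr1 and Egr2 share a CArG box and a CRE core at the same distances, and Nr4a1 holds 4 CRE cores.

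Most members are compact genes. Nr4a1, Nr4a2, Egr1, Egr2, Egr3, Egr4 and Nab2 span 2199 to 7790 bases, against a median of 20204 over genes above the floor, of which 23.4% span no more than 7790. Nr4a3 and Nab1 span 39839 and 40169 bases. The 4 lower members were all among the compact ones, as was Egr1.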

How the data were processed

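Poly(A) RNA-seq of 2 libraries, 1 per group, was taken from the authors' deposited table of scaled signal. Per the file headers, HOMER assigned antisense-strand reads to RefSeq exons (rn4) with 1 transcript a gene. The submitters' processing notes also list STAR 2.2.0c and CASAVA 1.8.2. The deposited signal has nearly equal column totals, so an unnamed scaling followed. Whole reads were recovered by dividing by the column's smallest step, 0.962 (control) or 1.04 (anti-miR). All values of at most 400 reads (100%) came out whole within 0.005 units. Of 16847 rows, 1 repeated a symbol and was dropped.

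RPM, ratios with a pseudocount of 0.1 RPM, Clopper-Pearson and Poisson intervals were computed in Python 3.11.15 with scipy 1.17.1. Interval code and read recovery were tested on simulated data. The floor was a mean of 1 RPM. With 1 library per group no p-value is given for any gene. Alternatives were pseudocounts, floors, scalings (edgeR 4.0.16 for TMM) and a fold rule of 2. Members and lists were chosen with earlier results of these data known. Named genes are all members and, in each other list, the highest and lowest ratio and the 2 most abundant above the floor. Immediate early genes of at least 50 RPM past 1.5-fold were added, and the 3 genes nearest in level to the 2 members with the highest mean RPM. Others, such as Atf1, Crtc2, Fos, Rxrg, Fbp2, Ucp3, Stat6 and single marker genes, were chosen after their values were seen. Promoters and miRNAs are from RefSeq (GRCr8): 7 of 9 members matched by symbol. Proteins were not analysed here, and 1 gene picked by the naming rule is not reported here.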

Additional observations from a re-analysis of the deposited data

How the results depend on the processing

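All 40 recomputed log2 ratios of members (8 genes under 2 other pseudocounts and 3 other scalings) kept their sign and stayed within the counting interval. Median-ratio, upper-quartile and TMM scaling shifted every ratio by −0.02 to −0.03 on the log2 scale. The number of members at least 1.5-fold lower was 4 under the other pseudocounts and scalings and without a floor. With a floor of 10 RPM it was 3 of 6 members. Under the fold rule of 2, 3 members were at least 2-fold lower. The 1 member at least 1.5-fold higher, Nr4a3, rests on few reads: the count was 0 with a pseudocount of 1 RPM, 0 with a floor of 10 RPM and 0 with a fold rule of 2. With the fold rule of 2, other immediate early genes past it on the lower side numbered 1 rather than 8. An exact binomial test on recovered reads, added after the data were seen, compares the 2 libraries and not the conditions. At an adjusted p under 0.05 it called 5975 of 10365 genes, 57.6%, against 2011 past 1.5-fold. No paired analysis was possible because each group has 1 library, and for the same reason no library could be left out.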
